A study of Canis lupus familiaris with 26 samples.

Results

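The 4 small leucine-rich proteoglycan genes DCN, BGN, PRELP and PODN were followed through laser-captured stroma of canine simple mammary adenomas. All 4 belong to this family and had an identifier in the study's tables of gene symbols. So had 6 other genes of the family, described below, which were not among those chosen. The members are 4 of the 18466 genes in the count matrix, under the Ensembl identifiers ENSCAFG00000006142 (DCN), ENSCAFG00000019189 (BGN), ENSCAFG00000009462 (PRELP) and ENSCAFG00000019183 (PODN). One of those tables is sorted by the difference between adenoma-associated stroma (AAS) and normal stroma, so that the values of AAS against normal stroma took part in the choice. The difference of each member between the groups is therefore given as a description, and no test is read from it. Stroma was isolated from formalin-fixed, paraffin-embedded (FFPE) blocks of 13 female dogs with a spontaneous tumour removed by surgery, and no treatment is named. Each dog gave 1 AAS sample, labelled as cancer-associated stroma, and 1 normal stroma sample from beside unaltered mammary gland on the same slides. The 12 dogs used were between 6 and 13 years old, and their blocks between 4 and 29 months. Normal stroma thus came from a tumour-bearing gland, not from a healthy dog.

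Small leucine-rich proteoglycans are secreted proteins of connective tissue whose core of leucine-rich repeats is capped by cysteines and binds collagen. Decorin (DCN) and biglycan (BGN) are close relatives that carry chondroitin or dermatan sulfate chains. Decorin shapes collagen fibrils, holds TGF-beta in the matrix and restrains growth factor receptors. Biglycan also binds collagen and, once released from the matrix, can signal through Toll-like receptors. PRELP, the proline- and arginine-rich member, binds collagen and the basement membrane proteoglycan perlecan, and podocan (PODN) is a more distant relative made by mesenchymal and smooth muscle cells. In an annotation of another dog assembly, UU_Cfam_GSD_1.0, DCN lies next to LUM, and PRELP lies between FMOD and OPTC, all of them genes of the same family. PODN overlaps SLC1A7 there. Whether they share exons, and so whether the counts of PODN are less certain, was not checked. The other 3 members overlap no protein-coding gene.

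Over the 24 samples used, total estimated counts ran from 419770 to 1614120. Pair 14 was left out because its normal stroma sample held 83727. A single gene took 84.9% of the counts in the AAS sample of pair 7, and 5 AAS samples (pairs 7, 8, 10, 12 and 15) held fewer counts than any normal stroma sample used. The ratio and the correlations named are given also without these pairs or AAS samples. So are the fold changes of BGN, DCN, PRELP, COL1A2, MMP2, SDC4 and COL18A1. Those of the other genes named are not. Levels are given as normalized CPM, the estimated count scaled to a common library size. Symbols were known for 5 of 7 fibroblast markers, 3 of them collagens. Their summed level ran from 977 to 19683 with a median of 3870 in normal stroma. In AAS it ran from 429 to 6488 with a median of 1798, and exceeded that of the normal partner in 2 samples. This sum is mostly collagen, with normal stroma means of 3781 (COL1A1), 1027 (COL3A1) and 747 (COL1A2), against 127 (THY1) and 81.3 (PDGFRA). THY1 was lower in AAS in 7 of 12 pairs and higher in 5 (log2 fold change -0.39, standard error 0.24). PDGFRA was lower in 8 and higher in 4 (-0.44, standard error 0.31). The sum of 3 of 10 epithelial markers ran from 90.3 to 238 in normal stroma and from 95.5 to 292 in AAS, above the partner in 8 of 12 pairs. That of ACTA2 and MYLK, 2 of 6 markers of smooth muscle and myoepithelium, ran from 33.2 to 182 and from 37.3 to 376, above the partner in 10 of 12 pairs. LEP, the 1 adipocyte marker with a symbol of 6, was at 0 in 10 normal stroma and 9 AAS samples. In the fit without the pair block none of the tested markers of these lists passed. COL1A2 passed with the block and in 5 of the alternatives without it, and COL1A1 with no filter on low counts and with the filter on a mean of 5 counts and the block. The part of such cells in the results was not tested. In such bulk samples, fewer cells of a type and less RNA per cell cannot be told apart.

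BGN was the member with more RNA in AAS. Its lowest, median and highest levels in normal stroma were 0, 20.8 and 93.5 normalized CPM. In AAS they were 28.0, 183 and 509. All 12 pairs were higher in AAS, and 9 of the 12 AAS samples lay above the highest normal stroma sample, so that the groups overlapped in 3 AAS samples only, those of pairs 7, 8 and 12. The means (± SD, n = 12 each) were 26.0 ± 26.6 for normal stroma and 203 ± 145 for AAS, and the log2 fold change was 2.96 (standard error 0.49). The smallest change belonged to pair 7, with 20.0 in normal stroma and 28.0 in AAS, the second of these from 3 counts. The direction of this pair depends on the scaling. Unscaled, BGN had 12 of 949956 counts in normal stroma and 3 of 618441 in AAS, a lower share in AAS. In pair 3 the normal stroma sample held 0 counts of BGN against 157 in AAS. With the floor of 3 counts this is at least 36.6-fold higher. When the 5 pairs of low AAS depth were left out, the difference of the groups was 2.88 on the log2 scale (standard error 0.57).

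DCN moved the other way. Normal stroma samples ran from 163 to 1182 normalized CPM, with a median of 575. AAS samples ran from 0 to 598, with a median of 86.6. DCN was lower in AAS in 12 of 12 pairs, and 8 of the 12 AAS samples lay below the lowest normal stroma sample. The means (± SD, n = 12 each) were 605 ± 286 and 152 ± 170, with a log2 fold change of -1.96 (standard error 0.45). The difference was uneven among dogs. In pair 9 the value was 903 in normal stroma and 598 in AAS, while in pair 11 it was 1182 and 38.5. The AAS sample of pair 10 held 0 counts of DCN, at least 26.8-fold lower than its normal stroma partner with the floor of 3 counts, while the same library held 53 counts of BGN. The SD of log2 CPM (prior count of 2) was 0.79 in normal stroma and 2.18 in AAS, the second with the 0 count of pair 10 included. Without the log2 scale the SD was the larger in normal stroma, as given above. The 5 AAS samples of low depth held between 0 and 89.2 normalized CPM of DCN, against 38.5 to 598 in the other 7. Leaving out their pairs gave a log2 fold change of -1.63 (standard error 0.45), and DCN was then no longer past the thresholds for a call.

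PRELP was lower in AAS in 11 of 12 pairs. Normal stroma held 73.2 at the lowest, 197 at the median and 332 normalized CPM at the highest, and AAS 3.82, 68.8 and 183. The groups overlapped, with 6 of the 12 AAS samples within the range of normal stroma and 6 below it. The means (± SD, n = 12 each) were 193 ± 71.0 and 91.0 ± 65.6, with a log2 fold change of -1.06 (standard error 0.35). Pair 9 was the exception, with 150 in normal stroma and 178 in AAS. In pairs 10 and 11 the values hardly differed, with 92.1 and 90.9 in the first and 185 and 183 in the second. DCN was far lower in AAS in both, with 281 and 0 in the first and 1182 and 38.5 in the second. In pair 8, where DCN was at 631 and 19.8, PRELP was lower too, at 233 and 38.3. The lowest AAS value, of pair 15, rests on 2 counts. With the pair number as a block its log2 fold change was -1.38 (standard error 0.35) and PRELP was past both thresholds, which it was not without the block. Leaving out the 5 pairs of low AAS depth gave -0.78 (standard error 0.32).

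PODN was close to the limit of detection. It averaged 10.3 estimated counts per sample over the 24 samples and was removed by the filter on low counts. The normal stroma samples lay between 0 and 34.9 normalized CPM with a median of 8.88, and the AAS samples between 0 and 20.7 with a median of 0.74. At most 1 count was found in 3 of 12 normal stroma and 8 of 12 AAS samples, and 8 pairs were lower and 4 higher in AAS. Under a looser filter, a mean count of 5 or more, its log2 fold change was -1.18 (standard error 0.84), and a difference was not resolved at these low counts.

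Genes were called by edgeR's quasi-likelihood test where the adjusted p was below 0.05 and the difference exceeded 2-fold, up or down. Of all 4544 genes tested, 1.8% were called, 0.616% as higher and 1.19% as lower in AAS. Among the members BGN was called as higher and DCN as lower, PRELP was tested and not called, and PODN was not tested. With the block, 2.53% of all genes were called, and 3 of the members. The calls of BGN and DCN alone stood with DESeq2 (2.95% of all genes called), RLE scaling (1.72%), all 13 pairs (1.94%), pair 7 left out (1.64%), the looser filter on low counts (1.97%) and the 10 most counted genes left out (1.85%). PRELP was called as well by DESeq2 with the block (5%), with the filter on a mean of 5 counts and the block (2.36%) and without a filter (9.16%), and BGN alone without the 5 pairs of low AAS depth (1.26%). Since the members were chosen on this contrast, nothing is read from these counts. The biological coefficient of variation was 77.0% for BGN, 74.6% for DCN and 58.4% for PRELP, against a median of 68.2% over all genes tested. This edgeR estimate covers both groups at once and is drawn towards that of other genes. It thus does not show the larger spread of DCN in AAS on the log2 scale given above.

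**Figure D1:**
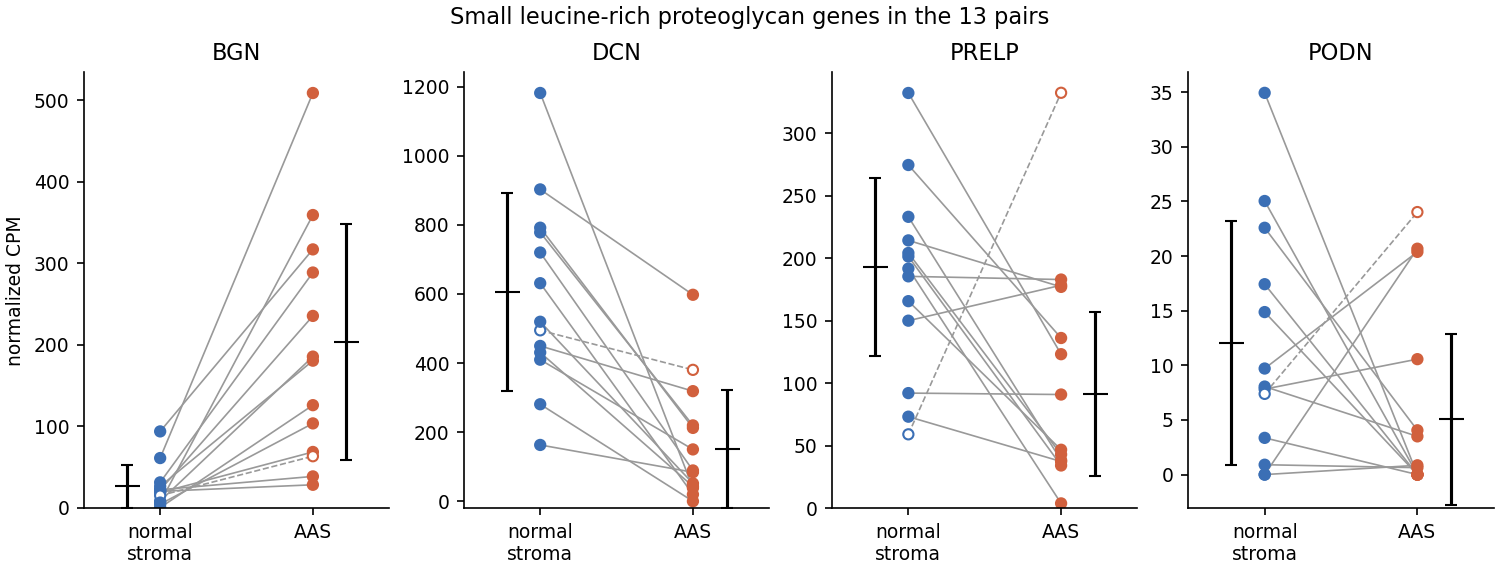
Normalized CPM (vertical axes, each with its own scale) of BGN, DCN, PRELP and PODN in normal stroma (blue) and AAS (orange), with a line joining the samples of 1 dog. Black bars give the mean and SD of the 12 pairs used, and open points with a dashed line give the excluded pair 14. BGN is higher and DCN lower in AAS in 12 of 12 pairs, for BGN in pair 7 only after scaling.

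Within a sample, the ratio of BGN to DCN counts needs no scaling for library size. It is a ratio of counts, not of molecules, since the lengths of the transcripts were not used. BGN made up between 0% and 10.9% of the summed BGN and DCN counts in normal stroma, with a median of 3.07%, and between 25.0% and 100% in AAS, with a median of 61.3%. The groups did not overlap. Since the contrast took part in the choice of both genes, this too is a description, and no test is read from it. On the log2 scale, with 0.5 added to each count, the mean ratio (± SD, n = 12 each) was -5.14 ± 1.76 for normal stroma and 1.01 ± 2.33 for AAS. DCN outnumbered BGN in every normal stroma sample. BGN outnumbered DCN in 7 of 12 AAS samples, those of pairs 5, 6, 8, 10, 11, 13 and 15.

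The ratio was higher in AAS in 12 of 12 pairs, by a mean of 6.15 ± 2.82 on the log2 scale (SD, n = 12 pairs). Over the pairs the median change was 5.75, a 53.6-fold difference. The change was smallest in pair 7, where 12 counts of BGN stood beside 98 of DCN in normal stroma, and 3 beside 9 in AAS. The BGN share of these counts was 10.9% in normal stroma (exact Clopper-Pearson 95% interval 5.77% to 18.3%) and 25.0% in AAS (5.49% to 57.2%), and the intervals overlap. In each of the other 11 pairs the interval of the AAS sample lay above that of its normal stroma partner. These intervals cover counting error only, each within a single library, and not the variation among dogs. Since the contrast took part in the choice of both genes, whether the intervals of a pair overlap is a description too, and no test is read from it. In pair 9, the second smallest change, both genes were well counted, with 106 of BGN and 1023 of DCN in normal stroma and 622 and 1173 in AAS. In pairs 3 and 10 a count of 0 stands in the ratio. With the floor of 3 counts in its place, the ratio was at least 51.7-fold and at least 616-fold higher in AAS. Without the 5 pairs of low AAS depth the mean change was 5.83 ± 1.99 (SD, n = 7 pairs).

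Pair 14, which was in neither the study's comparison nor the values above, held 2 counts of BGN and 67 of DCN in normal stroma and 63 and 380 in AAS. The BGN share was 2.90% (exact 95% interval 0.353% to 10.1%) in normal stroma and 14.2% (11.1% to 17.8%) in AAS. The ratio changed by 2.17 on the log2 scale, in the direction of the other pairs and less than in 11 of them. PRELP went against them, at 59.1 normalized CPM (8 counts) in the normal sample and 332 (332 counts) in that of AAS. PODN was at 1 and 24 counts.

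**Figure D2:**
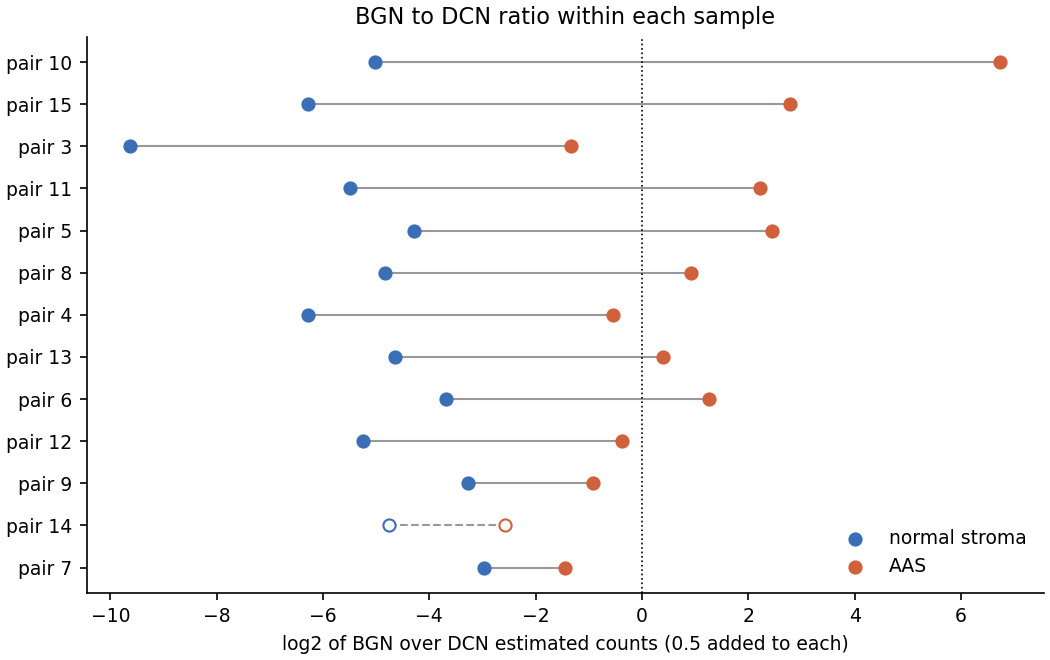
Log2 ratio of BGN to DCN estimated counts (horizontal axis, 0.5 added to each count) in the normal stroma (blue) and AAS (orange) sample of each pair, ordered by the size of the change. The dotted line marks equal counts, and open points mark the excluded pair 14. No normal stroma sample reaches 0, and 7 of the 12 AAS samples lie above it.

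The samples of 1 group were used to ask whether the members vary together from dog to dog, which does not depend on the contrast that chose them. For this 34 relations were computed on log2 CPM, among members, with the age of the dog, the age of the block and the total count, and between the samples of a pair. None passed after Benjamini-Hochberg adjustment (two-sided permutation tests with 100000 resamples), while 4 Pearson and 2 Spearman correlations had an unadjusted p below 0.05. BGN and DCN had positive coefficients in both groups. In normal stroma their Pearson correlation was 0.44 (permutation p = 0.148, adjusted p = 0.718) and Spearman's rho 0.70 (permutation p = 0.0136, adjusted p = 0.234). In AAS they were 0.20 (permutation p = 0.552, adjusted p = 0.871) and 0.29 (permutation p = 0.368, adjusted p = 0.934). Without the 2 samples farthest from the median of BGN, r was 0.43 and 0.12. Without the 5 pairs of low AAS depth it was 0.69 and 0.20.

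DCN and PRELP had an r of 0.68 in normal stroma (permutation p = 0.0165, adjusted p = 0.229; rho 0.40, permutation p = 0.201, adjusted p = 0.741) and 0.52 without the 2 farthest samples. It rests on few samples, since it was 0.41 without pair 7 and -0.089 without the 5 pairs of low AAS depth. In AAS it was 0.26 (permutation p = 0.388, adjusted p = 0.871; rho 0.43, permutation p = 0.170, adjusted p = 0.741), 0.46 without the 2 farthest samples and 0.43 without the 5 pairs. No relation of the level in AAS with that in the normal stroma of the same dog passed. For BGN r was 0.24 (permutation p = 0.442, adjusted p = 0.871; rho 0.39, permutation p = 0.210, adjusted p = 0.741), and 0.16 without the 2 farthest samples. Without the 5 pairs of low AAS depth it was 0.84 (exact permutation p = 0.0167, adjusted p = 0.189, n = 7 pairs). For DCN it was 0.35 (permutation p = 0.263, adjusted p = 0.854; rho 0.31, permutation p = 0.331, adjusted p = 0.934), 0.69 without the 2 farthest and 0.01 without the 5 pairs. For PRELP it was 0.13 (permutation p = 0.686, adjusted p = 0.933; rho 0.08, permutation p = 0.800, adjusted p = 0.934), 0.14 without the 2 farthest and 0.12 without the 5 pairs.

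The relation nearest to the threshold was that of DCN with the log2 total count of the AAS samples. Its r was 0.75 (permutation p = 0.00188, adjusted p = 0.0639), rho was 0.70 (permutation p = 0.0138, adjusted p = 0.234), and r without the 2 farthest samples was 0.66. Without the 5 AAS samples of low depth it was 0.48 (exact permutation p = 0.273, adjusted p = 0.904, n = 7). In normal stroma r was 0.31 (permutation p = 0.327, adjusted p = 0.854; rho 0.07, permutation p = 0.834, adjusted p = 0.934), -0.23 without the 2 farthest and 0.23 without the 5 pairs. The part of depth in the DCN values of AAS was not tested. PRELP in normal stroma had an r of -0.64 with the age of the dog (permutation p = 0.0267, adjusted p = 0.229; rho -0.55, permutation p = 0.0704, adjusted p = 0.741), and -0.61 without the 2 farthest samples, but -0.39 without pair 7 and -0.10 without the 5 pairs. DCN in normal stroma had an r of -0.63 with the age of the block (permutation p = 0.0270, adjusted p = 0.229; rho -0.52, permutation p = 0.0887, adjusted p = 0.741), and r was -0.30 without the 2 farthest samples. It was -0.39 without pair 7 and -0.64 without the 5 pairs.

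**Figure D3:**
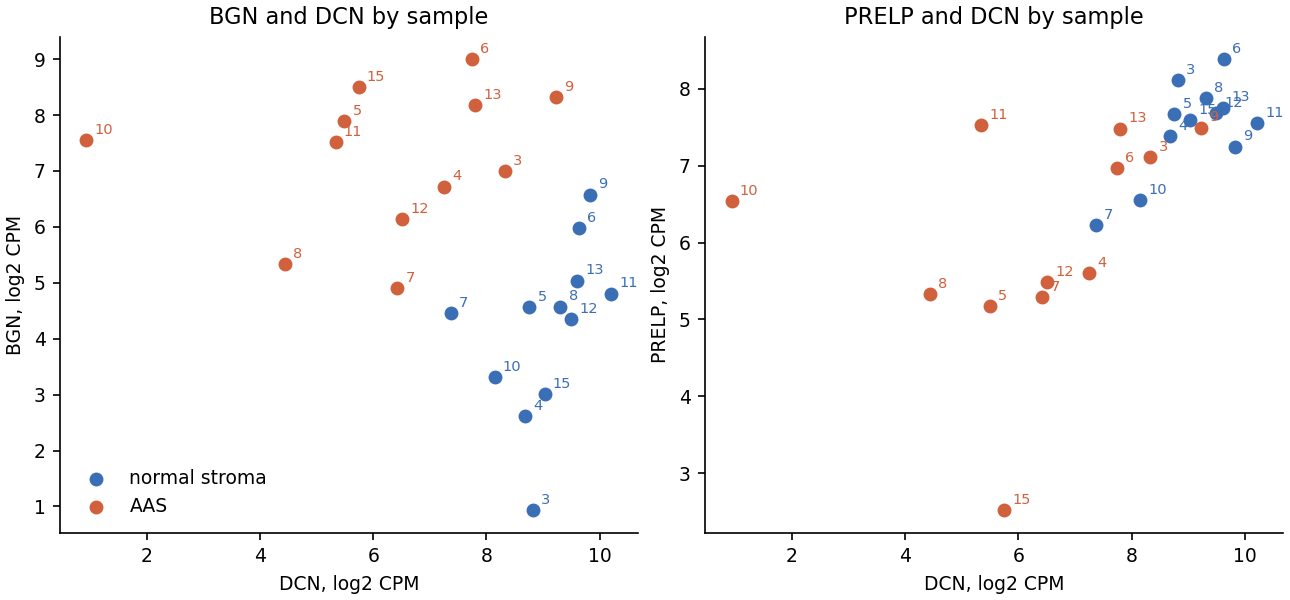
Log2 CPM of BGN (left) and PRELP (right) against that of DCN in the 12 normal stroma (blue) and 12 AAS (orange) samples, with pair numbers beside the points. The coefficient of BGN and DCN was positive in both groups (r of 0.44 in normal stroma and 0.20 in AAS), and neither passed after adjustment. With 12 samples each, an inverse relation is not excluded. The AAS sample of pair 10 stands apart with 0 counts of DCN.

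Genes with the most similar pattern were sought among 1855 tested genes with a symbol, by the Pearson correlation of log2 CPM deviations from the group means over 24 samples. These are descriptions, and all genes of a sample share its library, depth and scaling. For DCN they were FBLN1, the matrix glycoprotein fibulin-1 (r = 0.90), LAMA2, the alpha 2 chain of laminin (0.89), and MMP2, a gelatinase that can cleave decorin (0.82). Without the 5 AAS samples of low depth, r was 0.82, 0.83 and 0.68. For PRELP they were CCDC80, a matrix-binding secreted protein (r = 0.84), CYB5R3, a cytochrome b5 reductase (0.82), and SERPING1, the inhibitor of complement C1 (0.81). Without the 5 samples r was 0.84, 0.72 and 0.65. For SERPING1 r was 0.92 in AAS and 0.39 in normal stroma, a difference that was not tested. For BGN they were PNRC1, a nuclear receptor coregulator (0.76), CYP2S1, a cytochrome P450 (0.72), and RAB5C, a GTPase of early endosomes (0.72), and without the 5 samples r was 0.70, 0.65 and 0.85. None of the likest genes was another member. The r of DCN was 0.32 with PRELP and 0.23 with BGN, ranks 1074 and 1506 among 4543 genes.

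Of 14 other genes of the family, 6 had an identifier and all 6 were tested. None passed by edgeR, 1 of them (ECM2) had an unadjusted p below 0.05, and 1 (ECM2 again, -1.36, adjusted p = 0.0458) passed by DESeq2 with the pair block. Their log2 fold changes ran from -1.17 to 1.02 with a median of 0.37, against 0.01 over all genes tested. ECM2, a matrix protein with leucine-rich repeats, was the only gene of the 6 below 0. Its means (± SD, n = 12 each) were 28.1 ± 16.7 and 11.6 ± 10.6 normalized CPM in normal stroma and AAS. In 10 of 12 pairs its level was lower in AAS (log2 fold change -1.17, standard error 0.56, edgeR adjusted p = 0.451). NYX, nyctalopin, known from the retina, had 18.9 ± 17.5 and 38.1 ± 26.2 and was higher in 9 of 12 pairs (1.02, standard error 0.50, edgeR adjusted p = 0.479). FMOD, fibromodulin, a collagen-binding neighbour of PRELP, had a log2 fold change of 0.68 (standard error 0.53, edgeR adjusted p = 0.777) and was higher in 8 of 12 pairs. OMD and OGN, osteomodulin and osteoglycin, both first known from bone, had 0.58 (standard error 0.63, edgeR adjusted p = 0.879) and 0.17 (standard error 0.61, edgeR adjusted p = 0.979). ASPN, asporin, which like decorin binds collagen and TGF-beta, was at 32.7 ± 21.2 and 33.5 ± 20.3, with a log2 fold change of 0.00 (standard error 0.52, edgeR adjusted p = 0.997).

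Partner genes were taken from lists of collagens and their cross-linkers, bound ligands and receptors, proteases that cleave these proteoglycans, enzymes that build the sulfated chains, and other proteoglycans. None of the 27 tested genes of these lists and the family passed in the edgeR fit without the block, while 11 of them had an unadjusted p below 0.05, as had 477 of all 4544 genes. Symbols of the listed genes came in part from a table sorted by this contrast, which thus took part in which genes could be tested. Counts and medians of the lists are therefore descriptions, and nothing is read from them against all genes. Without the block, COL1A2 alone passed when pair 7 was left out and with the filter on a mean of 5 counts, and COL1A2 and MMP2 passed with all 13 pairs and by DESeq2. Among collagens, which the members bind, 10 of 18 listed genes were tested and 9 had a log2 fold change below 0, with a median of -0.86 against 0.01 over all genes. COL1A2, a chain of the main fibrillar collagen, was nearest (-1.36, standard error 0.38, edgeR adjusted p = 0.0532), and with the block it passed (-1.44, standard error 0.27, edgeR adjusted p = 0.00204), as did COL14A1, a collagen of fibril surfaces (-1.44, standard error 0.39, edgeR adjusted p = 0.0423). Leaving out the 5 pairs of low AAS depth gave -0.96 for COL1A2 (edgeR adjusted p = 0.322). COL12A1, another fibril-associated collagen, was the tested collagen on the other side (0.82, standard error 0.34, edgeR adjusted p = 0.321).

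All 3 tested proteases were below 0, and MMP2 had -1.33 (standard error 0.40, edgeR adjusted p = 0.0890). It passed with the block (-1.75, standard error 0.35, edgeR adjusted p = 0.00407), with all 13 pairs (-1.38, edgeR adjusted p = 0.0422), without a filter and by DESeq2, and not without the 5 pairs of low AAS depth (-1.02, edgeR adjusted p = 0.290). Among receptors and ligands, TLR4, through which biglycan can signal, had a log2 fold change of -0.03 (standard error 0.27, edgeR adjusted p = 0.990), and LRP1, an endocytic receptor of decorin, -0.57 (standard error 0.23, edgeR adjusted p = 0.316). Of 23 enzymes that build the chains, 4 had an identifier and none passed the filter on low counts. Other proteoglycans ran from -1.53 (SDC4, a syndecan, standard error 0.66, edgeR adjusted p = 0.375) to 0.64 (COL18A1, standard error 0.68, edgeR adjusted p = 0.875). Leaving out the 5 pairs of low AAS depth gave -1.17 for SDC4 (edgeR adjusted p = 0.749) and 1.94 for COL18A1 (edgeR adjusted p = 0.243).

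**Figure D4:**
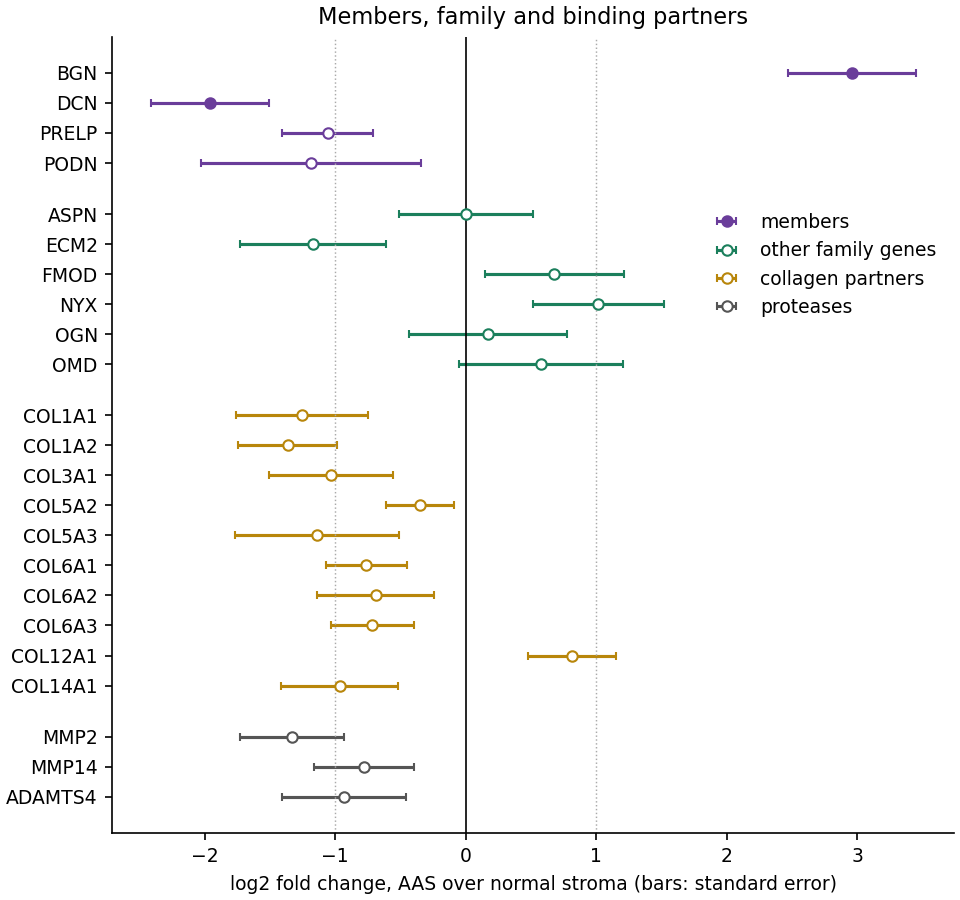
Log2 fold change of AAS over normal stroma (horizontal axis) with its standard error for the members, the other tested genes of the family, the tested collagens and the tested proteases, from the fit without the block. PODN is from the fit with the looser filter on low counts. Filled points passed both thresholds, which among these genes are BGN (2.96) and DCN (-1.96), and dotted lines mark log2 fold changes of -1 and 1.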

How the data were processed

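RNAseq was made from total RNA of laser-captured FFPE stroma, and samples were grouped by their labels. The authors quantified reads with kallisto 0.44.0 on Ensembl transcripts of CanFam3.1 with sequence bias correction, summed them per gene with tximport and deposited estimated counts, not normalized, for 18466 genes and 26 samples. The deposited estimated counts are whole numbers, so rounding changed 0 values. Bias correction and the splitting of shared reads by kallisto can shift genes against each other, and transcript lengths were not used. Symbols came from readable parts of the study's tables, for 3302 identifiers. Since a table among them is sorted by the difference of AAS and normal stroma, that difference took part in which listed genes and markers had a symbol.

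As in the methods, pair 14 was left out. They name no pair term, and none was used. Their thresholds were kept, while their DESeq2 test is an alternative here. Counts were filtered by filterByExpr, scaled by TMM and fitted with edgeR 4.0.16 (glmQLFit, glmQLFTest) in R 4.3.3, with Benjamini-Hochberg adjustment. Standard errors of the edgeR fits were derived as the absolute log2 fold change divided by the square root of the F statistic. The fit was tested on simulated data. Normalized CPM (cpm in edgeR) use the TMM-scaled library size. Pair 14 was scaled in a fit of all 13 pairs. Ratios carry 0.5 per count. Permutation tests used numpy 2.4.6 under Python 3.11.15, and exact intervals scipy 1.17.1. Numbers pair samples of 1 dog. Deviations from group means correlated at 0.125 on average within pairs (6 of 12 pairs over 0.1) and at -0.00597 between pairs.

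Named genes are the members, tested genes of the family, listed partners past both thresholds, and the 3 likest genes of BGN, DCN and PRELP. Other partners, and the markers THY1 and PDGFRA, were named after their values were seen. The members and lists were chosen with earlier results of these data known. Depth, from 419770 to 1614120 counts, sets a floor of 1.86 to 7.15 CPM (3 counts, unscaled), and intervals cover counting error only. Alternatives were the pair block, DESeq2 1.42.0 with and without it, RLE scaling, other filters, all 13 pairs, leaving out pair 7, the 5 pairs of low AAS depth or the 10 most counted genes, and other offsets and prior counts. The authors' own fold changes and p-values were not used. No protein or promoter sequence is shown.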

Additional observations from a re-analysis of the deposited data

Results flagged for a closer look

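The AAS sample of pair 14 belongs to the pair left out of the comparison, which only the alternative with all 13 pairs used. Its log2 ratio of BGN to DCN was -2.58, above all 12 normal stroma samples of the comparison, the highest of which was at -2.98, and above its own normal stroma partner at -4.75. It lay below all 12 AAS samples of the comparison, the lowest of which was at -1.44. It was noted because it shows the direction of the other pairs in data outside the comparison. The normal stroma sample rests on 2 counts of BGN.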

How the results depend on the processing

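BGN kept its direction and stayed past the thresholds under all 11 alternatives run, with log2 fold changes from 2.88 to 3.18. DCN kept its direction under all 11, from -2.64 to -1.63, and missed the adjusted p only without the 5 pairs of low AAS depth (-1.63), an alternative chosen after seeing the data, which left 1 member called and fewer samples. PRELP kept its direction, and passed with the replicate block (-1.38), with DESeq2 and the block (-1.37), with a filter on a mean of 5 counts and the block (-1.41, also chosen after seeing the data) and without a filter on low counts (-1.02); with all 13 pairs it was -0.73. PODN, given by 2 alternatives, did not pass. The mean change of the BGN to DCN ratio ran from 5.43 without an offset, which leaves 10 pairs, to 6.57 without pair 7. Of all genes, 134 were called by DESeq2, 227 by DESeq2 with the block, 1690 without a filter (1258 higher and 432 lower in AAS, against 28 and 54) 153 with a filter on a mean of 5 counts and 183 with that filter and the block, against 82; the cause was not tested. Among the listed family and partner genes, 0 were called, against 3 with the block, 2 by DESeq2, 4 by DESeq2 with the block, 3 without a filter, 1 with a mean of 5 counts, 4 with that filter and the block, 2 with all 13 pairs and 1 without pair 7. ECM2 was among the 4 of DESeq2. With a prior count of 0.5, 1 of 34 relations passed, DCN with total count in AAS (r = 0.73, permutation test, adjusted p = 0.0476, against 0.0639 as reported and 0.0704 to 0.904 under the other alternatives). The r of DCN with PRELP in normal stroma changed sign without the 5 pairs of low AAS depth (-0.089). The pairing changed no other call of a member in the edgeR fit. Low counts limit PODN, BGN in normal stroma and the members in the AAS sample of pair 7, where a single gene took 84.9% of all counts.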
